A study of Rattus norvegicus with 18 samples.

Results

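Pericytes and vascular smooth muscle cells are the mural cells of the vessel wall, and 8 genes that mark them were followed through RNA-seq libraries of rat motor cortex after spinal cord injury. The genes were chosen by name, with earlier results of these data known. Acta2 and Tagln stand for the contractile apparatus, and Notch3 and Pdgfrb for the receptors that build and keep mural cells. Rgs5, Vtn, Anpep and Abcc9 are further pericyte genes. All 8 were found among the 12560 genes of the day 7 table and among the 31038 genes of the day 30 table, and all 8 passed the filter on low counts in every comparison.

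Pericytes wrap the capillaries inside the basement membrane they share with the endothelium, and smooth muscle cells ring the arteries and arterioles. Endothelial cells release PDGF-B, which recruits mural cells through the receptor Pdgfrb, and they display Notch ligands such as Jag1, which act on Notch3 in the neighbouring mural cell. In brain, pericytes are known for their part in keeping the blood-brain barrier closed, and arteriolar smooth muscle for setting blood flow.

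The series holds 18 libraries of polyA RNA. Its design text describes them as neurons enriched from motor cortex, while the sample titles name motor cortex only. At day 7 after injury, males gave 3 libraries labelled inj and 3 labelled Sham. At day 30, males and females each gave 3 libraries labelled In and 3 labelled S, short forms that the labels do not spell out. Strain, age, the kind and level of the injury and the method of enrichment are not given in the sources used here, nor is it said that the libraries of a group come from different animals, so a p-value here measures the spread between libraries, which may be technical.

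Gene counts totalled 2683105 to 3014083 in the Sham libraries and 14650528 to 17013273 in the inj libraries. At day 30 they totalled 14532252 to 27849794. Levels are given as CPM, a gene's counts per 1000000 counts of its library, after TMM scaling, which sets libraries to a common level over most genes, and on this scale 3 counts came to 1.09 to 1.23 CPM in the Sham libraries and to 0.114 to 0.288 CPM at day 30. Markers of several cell types were found in every library. All 13 endothelial, all 13 microglial and all 8 oligodendrocyte markers in the tables had counts in each, as did all 10 neuron markers. How far neurons were enriched was not tested. In bulk RNA, fewer cells of a type and less RNA per cell cannot be told apart. The tables of the 2 days were filtered differently, so levels were not compared between days.

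Of the 8 genes, 6 have a promoter window in the RefSeq table used here (build GRCr8), and Pdgfrb and Tagln do not. The 250 bases before the start are shown for Acta2, which had the largest day 7 difference of the 8, and for Notch3 and Rgs5, which differed most clearly by sex. Capitals mark CArG-like elements, the kind of site bound by serum response factor (CC, then 6 letters of which at least 5 are A or T, then GG), and TGGGAA on either strand, the core of the site bound by the Notch partner RBPJ.
Acta2 (chr1:241172504-241172753, minus strand): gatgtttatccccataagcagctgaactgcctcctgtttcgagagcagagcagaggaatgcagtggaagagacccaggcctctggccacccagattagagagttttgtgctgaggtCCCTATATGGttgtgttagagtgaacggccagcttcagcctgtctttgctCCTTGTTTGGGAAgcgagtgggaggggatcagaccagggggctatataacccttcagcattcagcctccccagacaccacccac
Notch3 (chr7:11834586-11834835, minus strand): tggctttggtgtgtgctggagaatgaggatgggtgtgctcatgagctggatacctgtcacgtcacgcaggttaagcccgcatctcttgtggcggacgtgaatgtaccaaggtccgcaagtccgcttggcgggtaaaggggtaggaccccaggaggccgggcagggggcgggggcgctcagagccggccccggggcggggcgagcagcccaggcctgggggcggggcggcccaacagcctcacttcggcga
Rgs5 (chr13:84380827-84381076, plus strand): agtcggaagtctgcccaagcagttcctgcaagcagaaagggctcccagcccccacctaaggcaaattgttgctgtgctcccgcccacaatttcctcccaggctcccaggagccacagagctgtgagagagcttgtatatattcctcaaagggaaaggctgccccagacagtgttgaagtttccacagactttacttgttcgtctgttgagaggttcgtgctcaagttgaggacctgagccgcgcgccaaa
The Acta2 window held 2 CArG-like elements, CCCTATATGG beginning 134 bases before the start and CCTTGTTTGG beginning 84 bases before it. Its TGGGAA begins 77 bases before the start and overlaps the second of them. The windows of Notch3 and Rgs5 held neither motif, nor did that of Abcc9. Anpep had 1 TGGGAA and Vtn had 5. A CArG-like element was present in 8.08% of 33469 rat promoter windows and in 1 of the 6 shown or searched here. TGGGAA was present in 22.1% of all windows and in 3 of the 6. A match describes these letters and does not show a bound site.

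At day 7 the question was whether mural genes differed between the injured and the Sham group. All 8 rose in the inj libraries, by 2.43-fold for Vtn to 9.89-fold for Acta2, and for all 8 every inj library lay above every Sham library. Of the 11786 genes tested, 19.3% were higher and 15.4% lower in inj at an adjusted p under 0.05, and 26.4% had all inj libraries above all Sham libraries. With library totals as the scale the median of all genes moved to 0.28 on the log2 scale, with 3365 genes higher and 957 lower, and all 8 genes were still called higher. Sham 1 and Sham 1-RNA share a number, and with the 2 summed as 1 library all 8 were called as well, where 2371 of all genes were higher and 2113 lower. The median log2 fold change was 2.78 over the 8 genes and -0.00 over all genes tested.

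Acta2, the smooth muscle actin of the contractile filament, stood at 19.7, 42.7 and 17.1 CPM in Sham 1, 3 and 1-RNA and at 259, 236 and 291 CPM in inj 2, 3 and 4. The lowest inj library was far above the highest Sham library, and the log2 fold change was 3.31 ± 0.30 (SE; adjusted p = 4.90e-05 by edgeR's quasi-likelihood test), the 35th highest of all genes tested. Tagln, the actin-binding protein SM22-alpha, stood at 39.3, 60.02 and 28.7 CPM in Sham and at 246, 224 and 363 CPM in inj, a log2 fold change of 2.70 ± 0.28. Both contractile genes were lowest in Sham 1-RNA and highest in inj 4. Reads that Acta2 shares with the other actin genes may be split in the counts in a way not given in the sources used here.

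The mural receptors rose too. Notch3, the Notch receptor of mural cells, stood at 9.42, 14.6 and 13.1 CPM in Sham 1, 3 and 1-RNA and at 130, 103 and 72.8 CPM in inj 2, 3 and 4, a log2 fold change of 3.03 ± 0.26. Pdgfrb, the receptor for PDGF-B, stood at 13.9, 16.2 and 16.7 CPM in Sham and at 103, 78.1 and 86.2 CPM in inj. Its log2 fold change of 2.51 ± 0.17 had the smallest standard error of the 8 and the smallest adjusted p (1.94e-05, edgeR).

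Rgs5, a regulator of G-protein signalling that marks brain pericytes, stood at 23.8, 21.5 and 25.1 CPM in Sham 1, 3 and 1-RNA and at 150, 160 and 91.3 CPM in inj 2, 3 and 4, a log2 fold change of 2.51 ± 0.23. Abcc9, the SUR2 subunit of the pericyte and smooth muscle potassium channel, stood at 7.38, 10.8 and 8.001 CPM in Sham and at 77.4, 68.8 and 44.8 CPM in inj, a log2 fold change of 2.87 ± 0.26. Like Notch3, both were lowest among inj libraries in inj 4, the library in which Acta2 and Tagln were highest. Anpep, the membrane aminopeptidase CD13, had a log2 fold change of 2.90 ± 0.27, and it rested on only 4, 6 and 7 counts in the Sham libraries. Vtn, the secreted matrix protein vitronectin, stood at 38.1, 41.9 and 77.1 CPM in Sham and at 125, 118 and 141 CPM in inj. Its log2 fold change of 1.28 ± 0.24 (adjusted p = 0.00254, edgeR) was the smallest of the 8, and Sham 1-RNA was the highest of its Sham libraries.

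**Figure D1:**
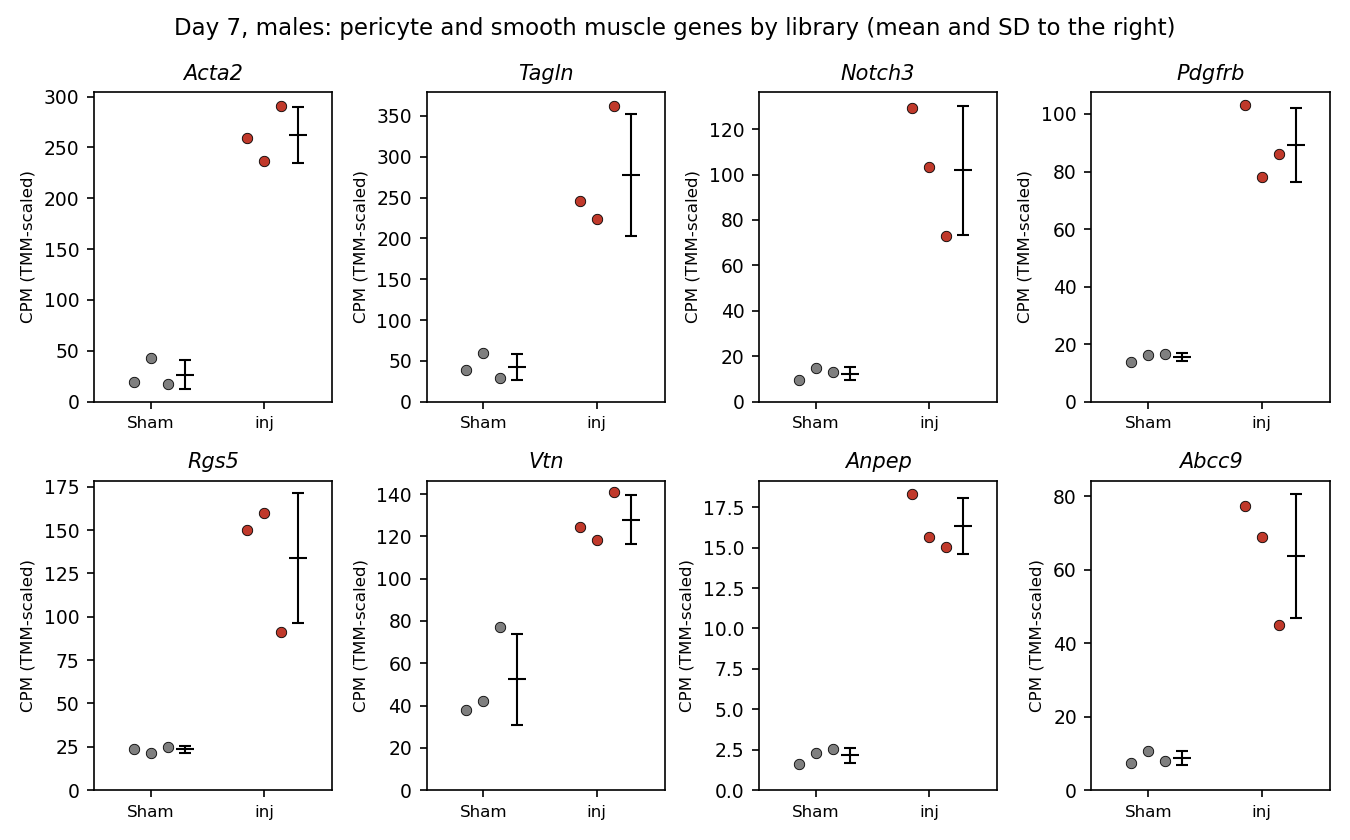
Levels of the 8 genes in each male library at day 7, in TMM-scaled CPM on linear axes from 0, with 3 points for Sham (grey) and 3 for inj (red) and the mean and SD beside them. In every panel all red points lie above all grey points; Acta2 reaches 236 to 291 CPM in inj.

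Most other mural genes moved the same way. Of 15 further pericyte genes tested, 12 rose, none fell and 3 did not pass, with a median log2 fold change of 1.67. Cspg4, the NG2 proteoglycan of pericytes and of oligodendrocyte precursors, rose by 2.34 ± 0.17 on the log2 scale, and Ednra, an endothelin receptor, by 2.66 ± 0.28. Atp13a5 rose by 2.87 ± 0.26 and Gper1, a G-protein coupled estrogen receptor, by 3.66 ± 0.31. Gper1 averaged only 1.17 CPM in Sham, about the level of 3 counts there, so its fold change is uncertain. Of 17 further contractile genes, 13 rose, none fell and 4 did not pass, with a median of 1.55 and 1 of the 17 below 0. Those that rose included Myh11, the smooth muscle myosin heavy chain, at 2.14 ± 0.23, and Des, the intermediate filament desmin, at 2.45 ± 0.27. Mylk, the myosin light chain kinase, rose by 1.44 ± 0.15 and Map3k7cl by 2.25 ± 0.23.

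The partners of the mural receptors were read from the same libraries. Of 5 other PDGF genes, 3 rose: Pdgfb, the endothelial ligand of Pdgfrb, by 2.85 ± 0.26 on the log2 scale, Pdgfd by 1.89 ± 0.55 and the receptor Pdgfra, a marker of oligodendrocyte precursors and fibroblasts, by 1.74 ± 0.21. Pdgfd averaged only 1.05 CPM in Sham, below the level of 3 counts there. Pdgfc was at -0.37 ± 0.36 and did not pass. Of 16 other Notch genes tested, 8 rose and 1 fell. The 1 that fell, named here after its value was seen, was Rbpj, the DNA-binding partner of the Notch receptors, at -0.52 ± 0.16. The ligands Jag1 and Dll4 rose by 2.44 ± 0.22 and 3.11 ± 0.32, and the receptors Notch4 and Notch1 by 2.23 ± 0.21 and 1.35 ± 0.19. Of 15 TGF-beta, angiopoietin and sphingosine phosphate genes, 11 rose and none fell. They include Eng (2.71 ± 0.22), the angiopoietin receptor Tek (2.72 ± 0.23) and its relative Tie1 (2.70 ± 0.20), all expressed by endothelial cells, and the receptor S1pr3 (2.56 ± 0.21). Of 20 close relatives of the 8 genes, 10 rose, among them Kcnj8, which forms the channel pore that Abcc9 regulates, by 3.45 ± 0.42, and Tagln2 by 1.73 ± 0.18. Kcnj8 stood at 2.48 CPM in Sham with an SD of 2.58, so its fold change rests on few counts.

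Markers of the neighbouring cells moved with the mural genes. The 13 endothelial markers all rose (median 2.79 on the log2 scale), and their summed level was 383 to 484 CPM in Sham and 2587 to 3055 CPM in inj. The log2 ratio of the 8 genes' counts to the endothelial counts was -1.20 ± 0.18 in Sham and -1.41 ± 0.05 in inj (SD, n = 3 each). Scaled to the endothelial total in place of TMM, 1 of the 8 was higher and 1 lower: Acta2 by 0.58 ± 0.24 (adjusted p = 0.0288, edgeR) and Vtn by -1.51 ± 0.27 (adjusted p = 5.37e-05). The other 6 lay between -0.26 and 0.28 and did not pass. On that scale 0.0509% of all genes were higher and 96.1% lower. The log2 fold change of Vtn was 1.51 below the endothelial median of 2.79, and those of the other 7 lay from 0.28 below it to 0.51 above it.

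Microglial and macrophage markers rose for 11 of 13, and their summed level went from 476 to 604 CPM in Sham to 2278 to 2451 CPM in inj. Of the 10 fibroblast and meningeal markers, 5 rose, with summed levels of 409 to 467 CPM in Sham and 578 to 704 CPM in inj. Of the 8 oligodendrocyte markers, 4 fell, with summed levels of 70449 to 206790 CPM in Sham and 59800 to 76034 CPM in inj. Astrocyte markers rose for 4 and fell for 3 of 10, and neuron markers fell for 2 of 10. The Sham libraries were also the shallow ones, as given above. The part of these differences in the rise of the mural genes was not tested.

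At day 30, In was compared with S in each sex. In males, none of the 8 genes passed the test between In and S, as none of the 15074 genes tested did (0% called in either direction). Acta2, Vtn and Anpep had an unadjusted p under 0.05 by edgeR, 2 of the 8 had one by DESeq2 and 1 by limma-voom, and none passed after adjustment with any of these tools. Over all genes, 1232 had an unadjusted p under 0.05 by edgeR, and DESeq2 called 2 and limma-voom 1 after adjustment. Vtn and Anpep were the 2 genes whose In libraries all lay above the S libraries, which 6.3% of all genes did.

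Acta2 stood at 284, 133 and 123 CPM in male In 1, 2 and 3 and at 79.7, 125 and 82.6 CPM in male S 1, 2 and 4, a log2 difference of 0.91 ± 0.38 (adjusted p = 0.608, edgeR). In 1 stood apart, and the other In libraries lay near S 2; without In 1 the difference was 0.42. Tagln stood at 316, 139 and 139 CPM in In and at 92.0, 192 and 119 CPM in S, and its groups overlapped (0.56 ± 0.39). Anpep stood at 13.9, 6.99 and 6.82 CPM in In and at 5.25, 6.44 and 3.62 CPM in S (0.85 ± 0.35, adjusted p = 0.602, edgeR). Vtn stood at 73.7, 60.5 and 66.7 CPM in In and at 47.4, 56.2 and 48.3 CPM in S (0.40 ± 0.19, adjusted p = 0.608, edgeR).

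The remaining 4 male differences were smaller than their errors: 0.23 ± 0.26 for Pdgfrb, 0.03 ± 0.20 for Rgs5, -0.01 ± 0.30 for Notch3 and -0.18 ± 0.41 for Abcc9 on the log2 scale. Male In 1 was the highest In library for 6 of the 8 genes and the lowest for Rgs5 and Abcc9, which had only 44 counts there. Male S 2 was the highest S library for 7 of the 8.

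In females, none of the 8 passed between In and S by edgeR, DESeq2 or limma-voom, and none had an unadjusted p under 0.05 by any of them. Of all genes tested, 0.0332% were higher in In and 0% lower. The 8 log2 differences lay between -0.20 ± 0.38 for Abcc9 and 0.06 ± 0.38 for Acta2, and for all 8 the In and S libraries overlapped, where 4.21% of all genes had every In library above S and 3.81% every In library below it. Female S 1 was the highest S library for 8 of 8 genes and female S 2 the lowest for 8 of 8. For Notch3 these were 159 and 85.7 CPM, so the spread within S was wider than the difference between the group means, 106 CPM in In and 112 CPM in S.

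The difference between the female and the male In minus S contrast did not pass for any of the 8 genes by edgeR, DESeq2 or limma-voom, nor for any of the 15074 genes by edgeR (0% in either direction, 619 at an unadjusted p under 0.05), where DESeq2 called 5 higher and 1 lower and limma-voom 0. It was below 0 for all 8, from -0.03 ± 0.56 for Abcc9 to -0.94 ± 0.48 for Anpep on the log2 scale. The smallest unadjusted p by edgeR was 0.0437 for Vtn (-0.58 ± 0.26, adjusted p = 0.94), the 1 gene of the 8 under 0.05, where DESeq2 had 0 and limma-voom 1.

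**Figure D2:**
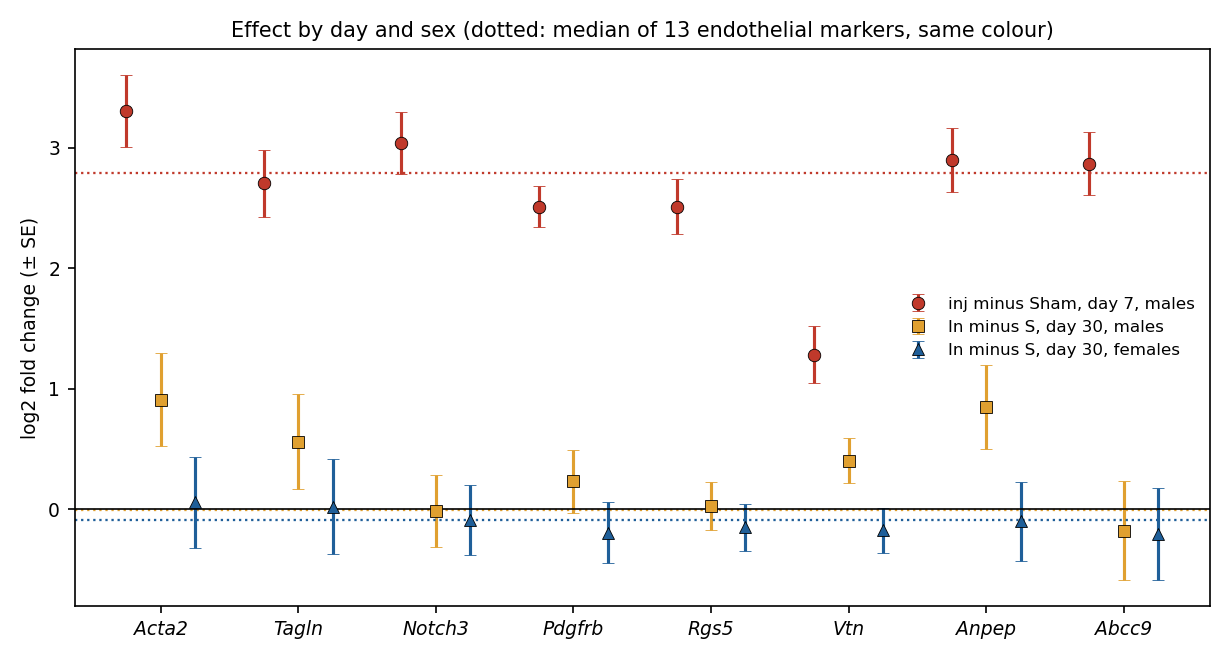
Log2 fold change with SE for the 8 genes, inj minus Sham at day 7 in males (red circles), In minus S at day 30 in males (yellow squares) and in females (blue triangles), with the median of 13 endothelial markers as a dotted line in the colour of each comparison. Day 7 values run from 1.28 for Vtn to 3.31 for Acta2, and day 30 values from -0.20 to 0.91.

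In males the difference of In from S at day 30 was smaller than that of inj from Sham at day 7 for 7 of the 8 genes, tested as the difference of the 2 contrasts over the genes in both tables. Of the 11693 genes tested, 7.71% were lower and 5.27% higher by this measure. The difference was largest for Notch3 at -2.997 ± 0.43 on the log2 scale (adjusted p = 0.000462, edgeR) and Abcc9 at -2.99 ± 0.56, and it was -2.0001 to -2.43 for Rgs5, Acta2, Pdgfrb, Tagln and Anpep. Vtn, at -0.83 ± 0.31 (adjusted p = 0.0931, edgeR), did not pass. It did without Sham 1-RNA (-1.23, adjusted p = 0.002745, edgeR), with Sham 1 and Sham 1-RNA summed (-0.89, adjusted p = 0.0275, edgeR), with library totals as the scale (-1.13, adjusted p = 0.0483, edgeR) and by limma-voom (-1.08, adjusted p = 0.00328). With library totals the median of all genes moved to -0.28, with 258 genes higher and 1577 lower, where TMM scaling gave 616 and 902. The endothelial list behaved likewise, with 11 of 13 lower and a median of -2.65, beside -2.29 over the 8 genes and 0.07 over all genes. Scaled to the endothelial total, 1 of the 8 passed, Vtn, in the opposite direction (1.81 ± 0.36), where 88.6% of all genes were higher and 0.00855% lower. The day 7 effect rests on the shallow Sham libraries, and day is also the split between the tables, so time and table cannot be told apart.

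Of 14 further pericyte genes with counts on both days, 9 were lower by this measure and none higher, and of 15 further contractile genes, 5 were lower and none higher. Myh11, Pln and Gper1 were left out of these lists, as they had 0 counts over all 12 day 30 libraries. In inj 2, 3 and 4, Myh11 had 5359, 5539 and 6535 counts and Pln had 293, 308 and 327. Genes without day 30 counts were not left out of the 11693 genes tested. Acta2 and Tagln had at least 867 counts in every day 30 library. Why these genes are at 0 there was not tested, and no change was read from it.

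The female and male libraries of day 30 differed in the level of some of the 8 genes. In S, 3 of the 8 were higher in females: Rgs5 by 3.84-fold, Abcc9 by 3.59-fold and Notch3 by 3.29-fold, where 1.7% of all genes tested were higher and 1.27% lower. In In, the same 3 genes were higher, by 3.38-fold, 3.52-fold and 3.12-fold, where 6.1% of all genes were higher and 6.59% lower. The comparisons in S and in In share no libraries, but they share 1 fit, its scaling and the split between female and male libraries. The contractile genes Acta2 and Tagln did not pass in either.

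Rgs5 stood at 135, 80.2 and 88.4 CPM in female S 1, 2 and 3 and at 26.5, 26.3 and 26.1 CPM in male S 1, 2 and 4. It stood at 91.9, 111 and 70.6 CPM in female In and at 26.3, 27.7 and 26.7 CPM in male In. All 6 female libraries lay above all 6 male libraries, and the male libraries spanned only 26.1 to 27.7 CPM. The log2 difference was 1.94 ± 0.20 in S (adjusted p = 0.000111, edgeR) and 1.76 ± 0.20 in In (adjusted p = 0.000432, edgeR).

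Notch3 stood at 159, 85.7 and 92.2 CPM in female S and at 27.9, 51.5 and 23.3 CPM in male S. In In it stood at 124, 107 and 85.6 CPM in females and at 38.5, 36.5 and 26.5 CPM in males. The sexes did not overlap, and the log2 difference was 1.72 ± 0.30 in S (adjusted p = 0.0113, edgeR) and 1.64 ± 0.30 in In (adjusted p = 0.00489, edgeR). In S the call was lost without male S 4 (adjusted p = 0.0622, edgeR). It was also lost with the replicate number as a block over all groups (1.62, adjusted p = 0.0585, edgeR).

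Abcc9 stood at 67.5, 30.204 and 42.9 CPM in female S and at 11.6, 15.8 and 11.997 CPM in male S, and at 41.9, 48.0 and 32.4 CPM in female In and 4.18, 16.8 and 13.5 CPM in male In. Every female library was above every male library, and the log2 difference was 1.84 ± 0.40 in S (adjusted p = 0.0338, edgeR) and 1.82 ± 0.41 in In (adjusted p = 0.0143, edgeR). The call in S was lost without any 1 of female S 1, female S 3, male S 1, male S 2 or male S 4 (log2 difference 1.49 to 1.99, adjusted p = 0.0792 to 0.14, edgeR), and that in In without female In 2 (1.68, adjusted p = 0.0658). With no filter on low counts both were lost, at 1.86 (adjusted p = 0.0907) and 1.83 (adjusted p = 0.0506). The replicate block over all groups also lost the call in S (1.86, adjusted p = 0.249, edgeR).

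For the other 5 genes the order of the sexes was less clear. In S the log2 differences were 1.096 ± 0.34 for Anpep, 0.90 ± 0.26 for Pdgfrb, 0.65 ± 0.19 for Vtn, 0.65 ± 0.38 for Acta2 and 0.14 ± 0.39 for Tagln, none of which passed by edgeR. DESeq2 called 6 of the 8, where it called 505 of the 15074 genes higher and 533 lower, and limma-voom called 5 of the 8, where it called 468 higher and 477 lower. In In they were 0.48 ± 0.26 for Pdgfrb, 0.15 ± 0.33 for Anpep, 0.07 ± 0.19 for Vtn, -0.20 ± 0.38 for Acta2 and -0.40 ± 0.39 for Tagln, and none passed by edgeR. DESeq2 called the same count of 3 in In, where it called 1264 genes higher and 1399 lower. In the same comparison limma-voom called 4, with Pdgfrb at 0.64 (adjusted p = 0.0404), where it called 1322 genes higher and 1323 lower. Pdgfrb was also called in In by edgeR without male In 1 and male S 2 (0.70, adjusted p = 0.0406). Non-overlapping groups, females above, were seen for 5 of the 8 in S (Notch3, Rgs5, Abcc9, Vtn and Anpep), where 15.2% of all genes had them, and for 3 of the 8 in In, where 17.6% had them.

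**Figure D3:**
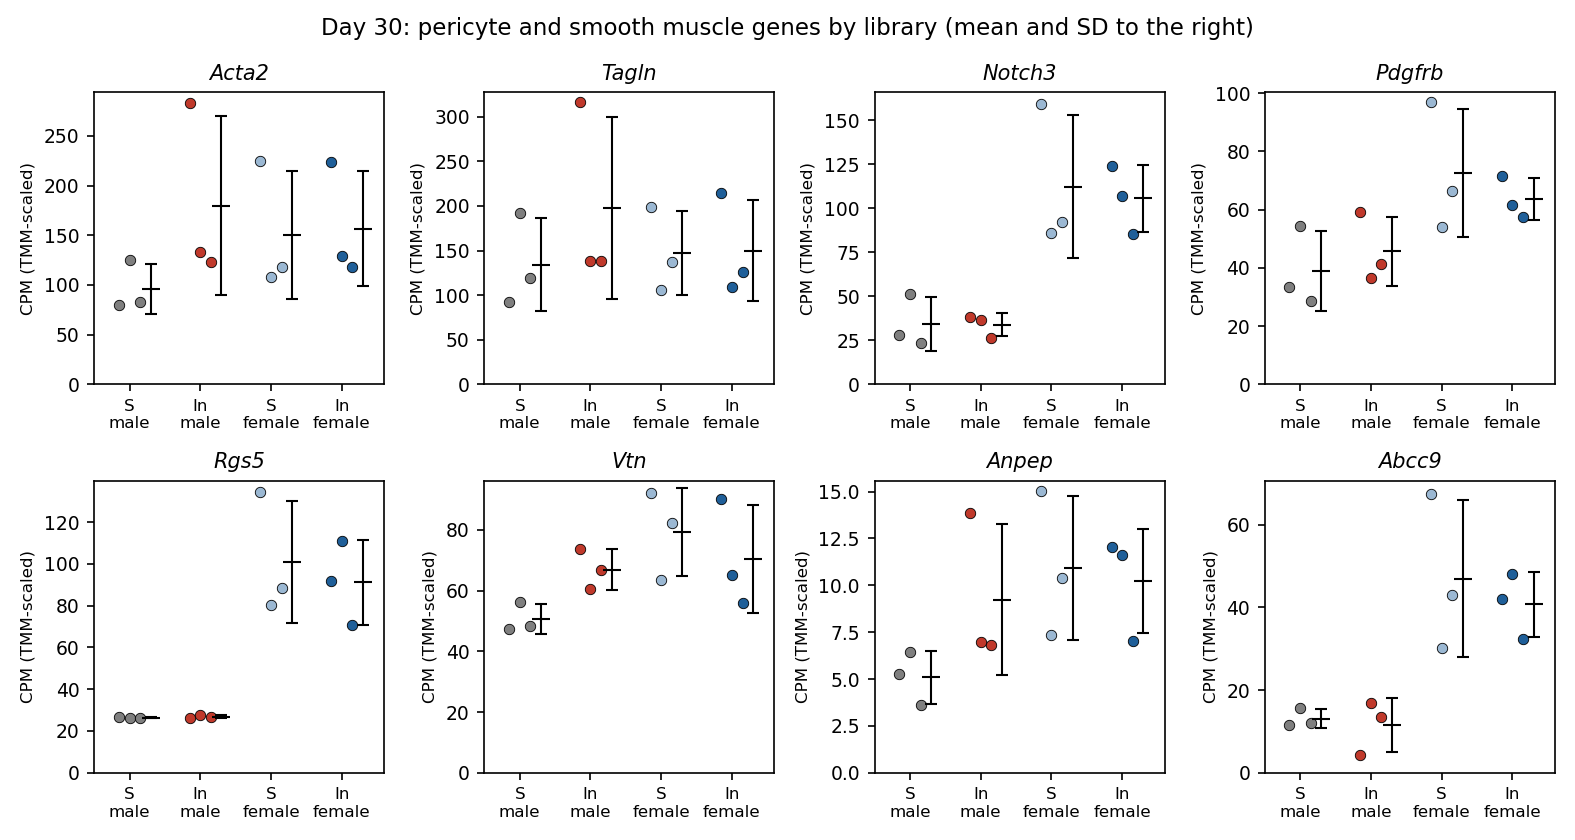
Levels of the 8 genes in each day 30 library, in TMM-scaled CPM on linear axes from 0, for male S (grey), male In (red), female S (light blue) and female In (dark blue), 3 points each, with the mean and SD beside them. The male Rgs5 points lie at 26.1 to 27.7 CPM and the female points at 70.6 to 135 CPM, while Acta2 and Tagln overlap between all 4 groups except that the male S points of Acta2 are the lowest on average.

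The order of the group means for Notch3, Rgs5 and Abcc9 was female S, female In, then the 2 male groups. Within a sex the In and S groups of these genes overlapped, and only the step from female to male lay outside the spread. For Acta2 and Tagln male In had the highest mean, 180 and 198 CPM, with In 1 at 284 and 316 CPM. A log2 ratio was taken of Acta2 and Tagln counts to the summed counts of the pericyte genes Pdgfrb, Rgs5, Vtn, Anpep and Abcc9. At day 30 it lay between 0.47 and 1.76 in the 6 male libraries and between -0.32 and 0.51 in the 6 female libraries. The sexes thus overlapped in this ratio, which includes Rgs5 and Abcc9, genes that were higher in females. At day 7 it lay between -1.50 and 0.15 in Sham and between 0.06 and 0.79 in inj, so these groups overlapped.

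**Figure D4:**
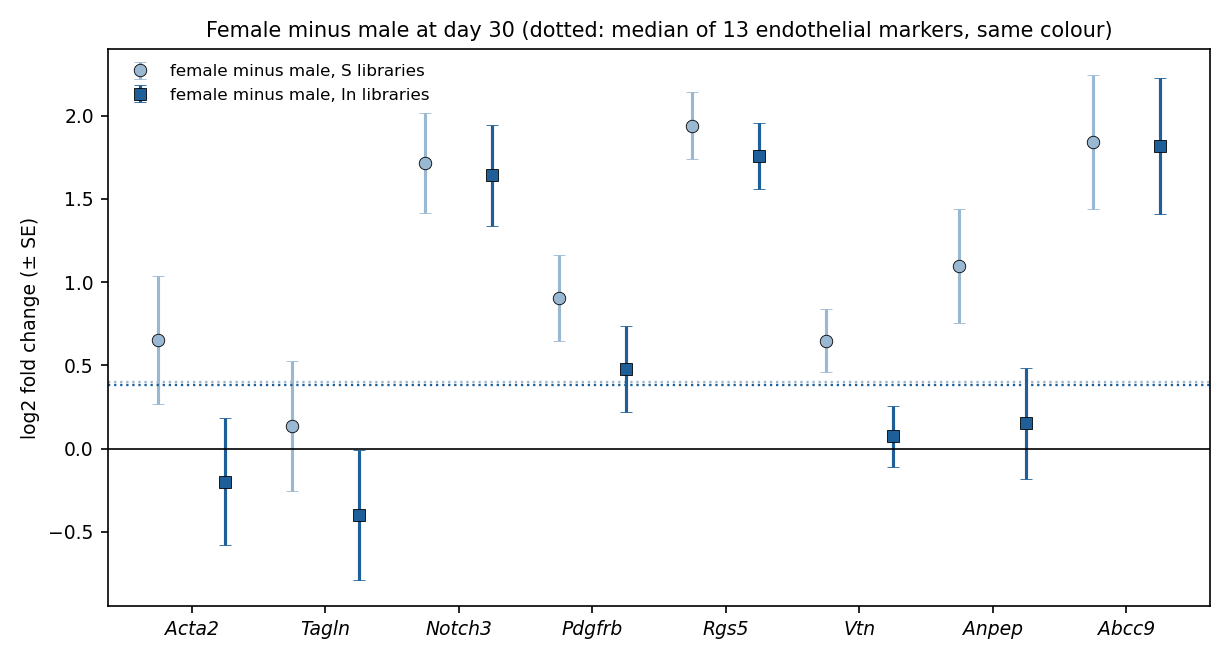
Log2 difference, female minus male, with SE for the 8 genes at day 30 in the S libraries (light blue circles) and in the In libraries (dark blue squares), with the median of 13 endothelial markers as a dotted line in the colour of each comparison. Notch3, Rgs5 and Abcc9 stand at 1.64 to 1.94 in both, and Tagln at 0.14 and -0.40.

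Among genes tied to the 8, Pdgfb was higher in females in S (1.17 ± 0.18) and in In (1.04 ± 0.18) on the log2 scale, and Pdgfa was lower in S (-0.79 ± 0.18). Of 16 other Notch genes, Rfng, a glycosyltransferase that modifies the receptors, was lower in both (-0.54 ± 0.14 and -0.57 ± 0.14), and Notch1 at 0.84 ± 0.17 and Notch2 at 1.62 ± 0.32 were higher in In. Of 14 TGF-beta, angiopoietin and sphingosine phosphate genes, 4 were higher in S and 5 in In, and Tgfbr2, Tek, Tgfbr1 and S1pr3 passed in both, at 1.05 to 1.52. Of 16 further pericyte genes, 1 was higher in S, Kcnj8 at 1.23 ± 0.28, and 2 in In, Gucy1b3 at 0.77 ± 0.19 and Cspg4 at 0.84 ± 0.25. Of 18 further contractile genes, 2 were higher in S, Cald1 at 1.12 ± 0.21 and Synpo2 at 1.52 ± 0.33, and 3 in In, Cald1 at 1.42 ± 0.21, Mkl2 at 1.42 ± 0.43 and Synpo2 at 1.22 ± 0.32. No TGF-beta, pericyte or contractile gene of these lists was lower in S or in In.

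Endothelial markers were higher in females for 4 of 13 in S and 6 of 13 in In, Cdh5 the most clearly at 1.57 ± 0.17 and 1.75 ± 0.18 on the log2 scale. Their summed level was 1607 to 1854 CPM in female S and 1280 to 1369 CPM in male S. In In it was 1534 to 2073 CPM in females and 1276 to 1511 CPM in males. With the endothelial total as the scale, Rgs5, Notch3 and Abcc9 still passed in both, at 1.34 to 1.62, where 0.385% of all genes were higher in S and 2.08% in In.

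Choroid plexus markers were higher in female In than in male In for 6 of 6 tested, with summed levels of 24.9 to 228 CPM against 0.793 to 1.36 CPM, and Ttr and Kcnj13 at 0 in all of them. In S none passed, with 0.893 to 2.44 CPM in females and 0.597 to 3.07 CPM in males. Microglial markers were higher for 2 of 13 in S, Cx3cr1 at 1.98 ± 0.19 and Csf1r at 1.11 ± 0.19 on the log2 scale, with a median of 0.13, and the summed level overlapped (1183 to 1567 CPM in females, 844 to 1386 CPM in males). In In the same 2 were higher, at 1.47 ± 0.19 and 0.64 ± 0.18, Aif1 was lower at -1.18 ± 0.32, and the median was -0.20, with summed levels of 1100 to 1544 CPM in females and 1210 to 1717 CPM in males. Of 10 astrocyte markers, none was higher in females, and 1 was lower in S and 2 in In. Gfap was lower in both, by -1.28 ± 0.24 in S and -1.26 ± 0.24 in In. The median of the astrocyte markers was 0.24 in S, with 5 of 10 above 0, and -0.15 in In, with 2 of 10 above 0. The part of these markers in the differences of the mural genes was not tested.

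The sexes also differed as libraries. The share of reads counted as ambiguous was 1.73% to 2.18% in females and 0.953% to 1.21% in males. The share not aligned uniquely was 16.4% to 19.5% in females and 17.5% to 40.6% in males, with male S 4 the highest. Without male S 4, 1 of the 8 was called in S, where 40 of all genes were higher and 28 lower. The TMM factors were 1.19 to 1.52 in females and 0.676 to 0.842 in males. With library totals as the scale, the median of all genes moved to 0.88 in S and 0.94 in In on the log2 scale, with 8964 genes higher and 34 lower in S, and 8 of the 8 mural genes called there. The values above are relative to most genes and do not carry that shift. Sex and any difference in how the female and male libraries were made cannot be told apart.

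**Figure D5:**
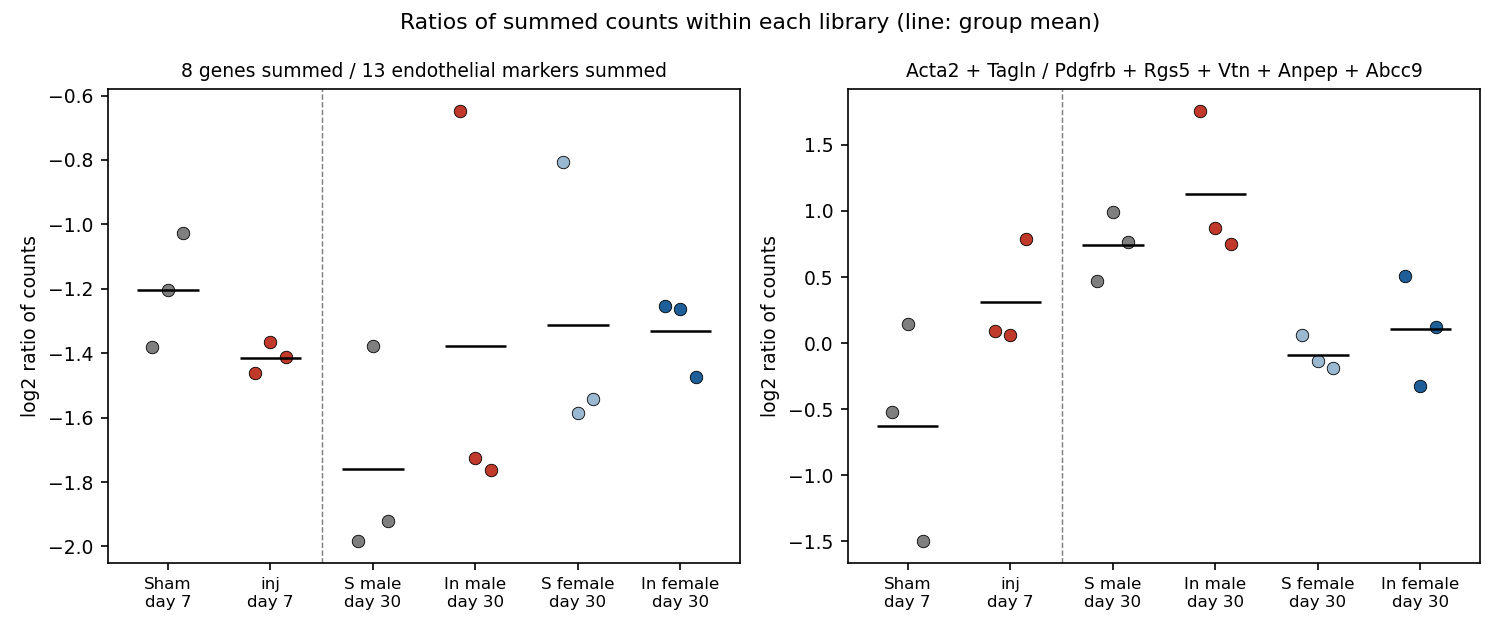
Log2 ratios of summed counts in each library, with group means as lines: left, the 8 genes to 13 endothelial markers, and right, Acta2 and Tagln to 5 pericyte genes. On the left Sham lies at -1.38 to -1.03 and inj at -1.46 to -1.36, and on the right the male day 30 libraries lie at 0.47 to 1.76 and the female ones at -0.32 to 0.51. The dashed line parts day 7 from day 30, which are not compared.

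Over the 12 day 30 libraries, the genes whose centred log2 CPM lay closest to the mean profile of the 8 were Tln1, Pde3a, Ccdc80, Cspg4 and Plxdc1, with mean absolute differences of 0.139 to 0.153 on the log2 scale, where the median over 15066 genes was 0.528. Of the 8 themselves, Pdgfrb was nearest to their mean at 0.131, and Tagln and Abcc9 were farthest at 0.492 and 0.483. This likeness is a description over libraries that share sex, group and depth.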

How the data were processed

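PolyA RNA of rat motor cortex was sequenced in 18 libraries. Reads were processed with HISAT2 and the rn6 build, and edgeR was used, per the submitters' processing notes, which give no versions. The counting program, its use of strand and, for day 7, its treatment of shared reads are not given in the sources used here. At day 30, reads not aligned uniquely and ambiguous reads stand in rows of their own, apart from the genes. The tables deposited by the authors hold raw read counts per gene symbol, 1 table per day. The day 7 table lists 12560 genes with at least 7 counts in total each; the day 30 table lists 31038, of which 9706 have no count, and 7 further rows that name no gene were left out of totals and tests.

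Counts were fitted with edgeR 4.0.16 (R 4.3.3; filterByExpr, TMM, robust quasi-likelihood test, Benjamini-Hochberg over all genes tested, threshold 0.05), 1 fit for day 7, 1 with 4 groups for day 30 and 1 over male libraries for the difference between days. DESeq2 1.42.0 and limma 3.58.1 (voom with sample weights), other scalings and filters, and leaving out libraries were the alternatives. Sham 1 and Sham 1-RNA share a number, and whether they come from 1 animal is not given; their counts differed by 31.8 chi-square units per gene, those of Sham 3 from Sham 1 by 3.27 and from Sham 1-RNA by 28.8, so 1-RNA stands apart. They were kept as 2 libraries by the labels, with their sum as an alternative. Whether the numbers of In and S libraries pair them is not given, and they were fitted as unpaired, with a replicate block as an alternative.

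The 8 genes and all gene lists were chosen with earlier results of these data known. From each list, at most 4 genes per comparison were named, those with the smallest p, besides Rbpj, the 1 Notch gene that fell at day 7, named after its value was seen; the nearest genes are the 5 closest to the mean profile. Depth ranged from 2683105 to 27849794 counts, which limits low genes most in Sham. Figures were drawn with matplotlib 3.10.9.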

Additional observations from a re-analysis of the deposited data

Results flagged for a closer look

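In males, the difference of In from S at day 30 (labels not spelled out) differed from that of inj from Sham at day 7 for 7 of the 8 genes by edgeR's test of the difference itself (12 male libraries). The day 30 effect minus the day 7 effect, on the log2 scale with its SE, was -2.22 ± 0.35 for Pdgfrb, -2.997 ± 0.43 for Notch3, -2.35 ± 0.49 for Acta2, -2.43 ± 0.28 for Rgs5, -2.09 ± 0.51 for Tagln, -2.0001 ± 0.50 for Anpep and -2.99 ± 0.56 for Abcc9. Leaving out any 1 library kept 7 or 8 of the 8 genes past the threshold. The Sham libraries of day 7 hold 2683105 to 3014083 counts, against at least 14532252 in the other male libraries, and the part of depth in the difference was not tested. None of the 8 genes passed the test of a difference between the sexes in the day 30 effect by edgeR, DESeq2 or limma-voom.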

How the results depend on the processing

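Of 952 recomputed values for single genes, 64 turned sign, whether or not their call changed. Of those that kept their sign, 846 kept their side of the threshold, 26 gained the call and 16 lost it. Some that turned sign with the endothelial total as the scale also lost the call. These were Pdgfrb, Rgs5 and Tagln at day 7, and Pdgfrb, Acta2, Rgs5, Tagln and Anpep for the day difference. Vtn turned sign and gained the call for the day difference. With the endothelial total as the scale, 2 of the 8 genes were called at day 7, Acta2 (0.58) and Vtn (-1.51), where 6 of all genes were higher and 11328 lower. Vtn turned sign there, as did Pdgfrb (-0.26), Rgs5 (-0.25) and Tagln (-0.039), which were not called. Other values that turned sign on this scale were Rgs5 at -0.083 between In and S in males, and Notch3 at 0.029 and Abcc9 at 0.17 for the sex difference. So did Tagln at -0.25 for female against male S, and Vtn at -0.22 and Anpep at -0.15 for female against male In. For the day difference on that scale 1 was called, Vtn at 1.81, where 10355 of all genes were higher and 1 lower. Vtn turned sign there, as did Pdgfrb (0.42), Acta2 (0.27), Rgs5 (0.17), Tagln (0.55) and Anpep (0.63), which were not called. That scale takes out whatever the endothelial genes share.

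For female against male S, 3 were called, where 256 of all genes were higher and 191 lower. DESeq2 called 6 (over all genes 505 higher and 533 lower), limma-voom 5 (468 and 477) and library totals 8 (8964 and 34). A fit of only the groups compared called 5 (423 and 523), and a fit without male In 1 and male S 2 together 6 (551 and 430). Leaving out single libraries gave 1 to 3, and 1 without male S 4 (40 and 28). For female against male In, library totals called 6 (over all genes 8916 higher and 53 lower), with Acta2 at 0.67 and Tagln at 0.47. Single libraries left out gave 2 to 3, where without female In 2 the counts over all genes were 245 higher and 333 lower. Notch3 in males was 0.10 by limma-voom, 0.0077 with library totals and 0.30 without male In 1 and male S 2; Abcc9 was 0.17 by limma-voom and 0.36 without them. Tagln in females was -0.017 by limma-voom. Acta2 for female against male In was 0.068 by limma-voom and 0.29 without those libraries, and Tagln 0.11. The cause of these moves was not tested.

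Leaving out single libraries turned the sign of values that had not passed. Between In and S in males, Notch3 ranged from -0.22 to 0.40 and Abcc9 from -0.56 to 0.22. In females, Pdgfrb ranged from -0.36 to 0.073, Notch3 from -0.25 to 0.25, Acta2 from -0.30 to 0.47, Rgs5 from -0.31 to 0.11, Tagln from -0.34 to 0.30, Anpep from -0.32 to 0.20 and Abcc9 from -0.44 to 0.16. For the sex difference, Notch3 ranged from -0.49 to 0.26, Rgs5 from -0.35 to 0.079 and Abcc9 from -0.42 to 0.36. Tagln for female against male S ranged from -0.14 to 0.49, and for female against male In Acta2 ranged from -0.55 to 0.29, Tagln from -0.76 to 0.11, Vtn from -0.16 to 0.22 and Anpep from -0.016 to 0.56.

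Whether the replicate numbers pair the libraries is not given, and these values do not settle it. Deviations of same-numbered In and S libraries correlated at 0.05 to 0.18 in females and at 0.01 and 0.11 in males. Those of other-numbered libraries correlated at -0.24 to 0.16 in females and at -0.10 to 0.06 in males. A replicate block over all groups left 1 of the 8, Rgs5, called for female against male S, where 14 of all genes were higher and 7 lower. A block within sex put Abcc9 at 0.47 for the sex difference. Between In and S in males, that block gave 1877 genes an unadjusted p under 0.05 by edgeR, beside 1232 without it, and 0 passed after adjustment. Counts as low as 4 for Anpep limit its Sham values.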
